A study of Caenorhabditis elegans and Caenorhabditis briggsae and Caenorhabditis remanei with 48 samples.

Results

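Ribosome profiling maps the messenger RNA fragments that ribosomes shield from nuclease digestion, called ribosome-protected fragments (RPF) or footprints, and so shows how the ribosomes of a sample are spread over its coding sequences. Described here is the footprint response of newly hatched Caenorhabditis elegans larvae to food, the part of a 48-library, 4-species series that compared arrested with growing larvae. Developing larvae were of strain N2, had hatched without food, been starved for 24 h and then been fed Escherichia coli HB101 for 3 h (3 RPF libraries). Diapause larvae, also N2, were starved for 24 h and not fed (3 RPF libraries). Fed larvae were thus harvested 3 h later than diapause larvae, so that food and the added 3 h cannot be told apart. By the study's methods, fed and starved larvae of a replicate came from the same batch of worms, but the means do not keep this pairing. Both states came from whole larvae of wild-type strain N2, each library from a large pooled culture, so that a change in a tissue cannot be told apart from a change in that tissue's part of the animal's RNA. The members are the coding-sequence identifiers (ids) whose mean normalized RPF value over all 6 libraries was at least 50, which held for 12162 of 21092 ids. These 12162 ids carried 99.0% of the summed footprint signal in developing and 98.5% in diapause.

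Larvae of C. elegans that hatch without food arrest in the first larval stage, known as L1 diapause, and can live in that state for weeks on stored material. Food, sensed in part through insulin signalling, restarts growth. Growth asks first for ribosomes: ribosomal proteins, the nucleolar factors that process and assemble ribosomal RNA, and the elongation factors and chaperones that serve the finished ribosome. In mammals the mRNAs of ribosomal proteins are held out of polysomes in starvation and return to them on feeding. Arrested larvae in turn rely on the breakdown of stored fat, on autophagy, which recycles cell contents in the lysosome, and on antioxidant and detoxifying enzymes.

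All values are the authors' means over the 3 libraries of a state, of reads per coding sequence divided by a size factor for each library, and are called normalized RPF below. The means keep no value for single libraries, and the authors' own test columns, which rest on the spread between libraries, were not used, so no difference below is tested or set against that spread. Changes are given as log2 of the developing mean over the diapause mean, and an id is counted as higher or lower where its means differ at least 2-fold. The paper states that total translation is much reduced in diapause, and that all its measurements are therefore relative. Higher and lower are thus relative levels here, and a lower value in developing need not mean that less protein was made. The share of an id is its mean as a percentage of the sum of all means of its state. Between ids it also grows with coding length, and several ids of a gene can count the same reads. Because the sum of means was higher in developing than in diapause by 0.44 on the log2 scale, the log2 ratio of shares is 0.44 below the log2 change for every id, and small rises in normalized RPF can be losses of share.

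The lowest values in the tables show what a single read adds to a mean. In developing it added 0.209, 0.442 or 0.596, depending on the library, which gives size factors of 1.59, 0.75 and 0.56. In diapause it added 0.207, 0.243 or 0.461, for size factors of 1.61, 1.37 and 0.72. At the limit of 50 a mean thus stood for 83.8 to 239 reads in developing and for 108 to 241 reads in diapause. The counting standard error of a log2 change, which covers the sampling of reads only, was at most 0.18 for the median id of the lowest quartile of means and at most 0.05 in the highest quartile. It is given below as a limit for ids with low means.

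A large part of the footprints moved between coding sequences from diapause to developing. The shares that rose summed to 42.0 percentage points, which is the part of the footprint signal that sat on other ids in developing than in diapause. Of the 12162 ids, 4068 gained share, a background of 33.4%, and 8094 lost it. Gains were held by fewer ids than losses: the 102 largest gains made up 50% of the points gained, whereas 354 losses were needed for 50% of the points lost. In normalized RPF, 2388 ids were at least 2-fold higher in developing (19.6%) and 1834 at least 2-fold lower (15.1%), and 7940 (65.3%) stayed between those limits. Counted on shares, 1565 ids were at least 2-fold higher (12.9%) and 3257 lower (26.8%), so that the higher ids made up 56.6% of those past 2-fold in normalized RPF but 32.5% in share. The median log2 change was 0.01, with quartiles of -0.60 and 0.74. At 4-fold, 889 ids were higher (7.31%) and 564 lower (4.64%).

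Large rises were most frequent among the ids with the most footprints. In the highest quartile of mean normalized RPF, 30.1% of ids were at least 2-fold higher in developing and 17.5% lower, against 13.3% higher and 15.2% lower in the lowest quartile. Of the 100 ids with the highest mean over both states, 66 were higher and 15 lower, and their median log2 change was 3.18. These means include the changed state itself, so the ids were in part chosen by their change. Among the 12162 ids, 5 in developing and 5 in diapause had a mean at or below what 3 reads in the shallowest library give (1.79 in developing, 1.38 in diapause), and 1 of those in developing was at 0. No fold is given for these.

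The footprints were also held by fewer ids after feeding. In developing 488 ids held 50% of the signal, against 879 in diapause, and 90% was held by 5396 ids in developing and 6536 in diapause. The 100 highest ids of developing carried 24.9% of its signal, and those of diapause 18.7%. At the very top the order turned round, since the 10 highest ids held 4.71% in developing and 5.07% in diapause. Of the 21092 ids, 13 were among the 100 highest of both states. The 100 highest of developing had held 5.47% of the footprints in diapause, and 92 of them were at least 2-fold higher in developing. The 100 highest of diapause held 9.08% of the footprints in developing and 18.7% in diapause, and 44 of them were at least 2-fold lower. As each list was picked by its own state, a change in that direction was built in.

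**Figure D1:**
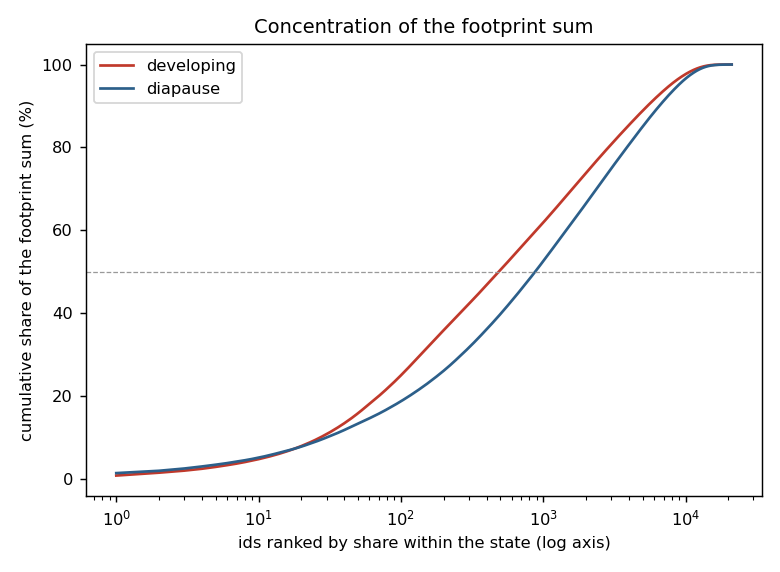
Cumulative share of the footprint sum (percent, vertical axis) over ids ranked by share within each state (log axis) for developing (red) and diapause (blue), from the authors' group means. The dashed line at 50% is crossed at 488 ids in developing and at 879 in diapause, and the curves cross among the highest-ranked ids.

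Names were available for 308 ids, through the study's published gene lists, and 270 of these passed the limit of 50. The lists hold genes with a high weight on its principal components, stress and dauer genes, and genes whose mRNA and RPF moved in opposite directions. The longer functional lists used further below (initiation factors, nucleolus, RNA polymerase, nuclear pore, ATP synthase, proteasome, CUB-like, transthyretin-like, cytochrome P450 and Wnt) come from its enrichments among ids already called higher or lower in these RPF libraries, so each of them could contain changes in its own direction only. The study chose most of the other lists on these libraries as well, so the counts of higher and lower ids within a list, and the groups made from the lists, describe the response and are no independent evidence of its direction. The named ids together held 20.9% of the footprints in developing and 10.1% in diapause. Of the 270, 124 were at least 2-fold higher in developing and 35 lower. For these and all RPF counts within a group or list below, the background is 19.6% of all ids higher and 15.1% lower. In the plot of shares in both states, the named translation genes form a band above the main cloud at the upper end. The ids of the carbon metabolism group lie below the line of equal shares.

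**Figure D2:**
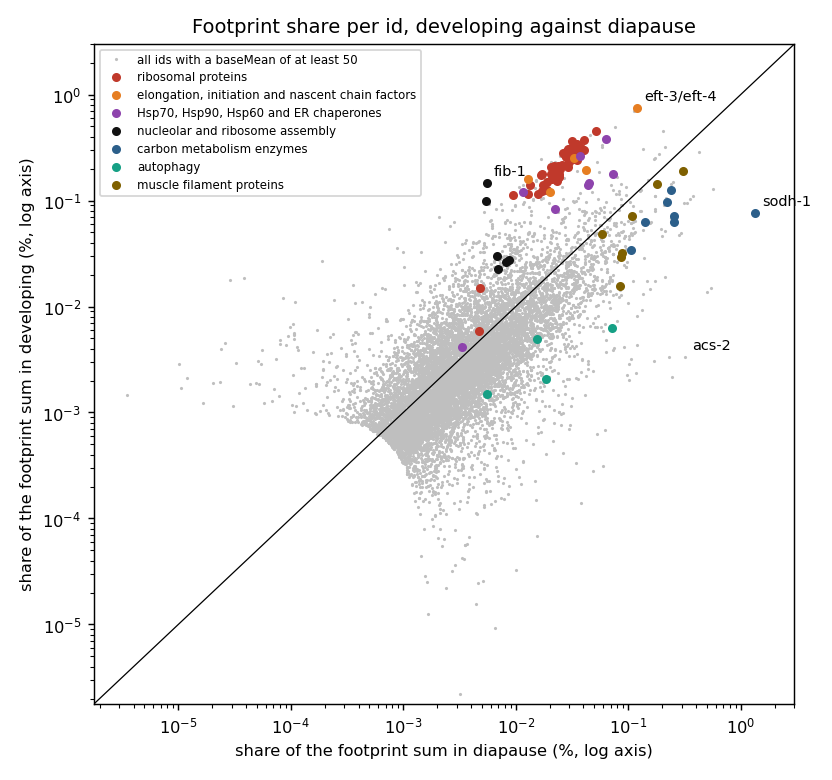
Share of the footprint sum in developing (vertical) against diapause (horizontal), both in percent on log axes, for ids with a baseMean of at least 50 and a value above 0 in both states (grey), with role groups of named ids in colour. The black line marks equal shares. Ribosomal proteins (red) lie above the line and carbon metabolism enzymes (blue) below it, with sodh-1 at 1.34% in diapause and 0.0766% in developing.

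Ribosomal proteins took the largest gain of all role groups. The 50 named ids, 30 listed for the large and 20 for the small subunit, held 11.1% of the footprints in developing and 1.27% in diapause. They do not cover every ribosomal protein: Y37E3.8 (rpl-27A in RefSeq) is not among them, while CE01031, whose name is uncertain, is. The sums are no total for the class, for which the paper gives higher percentages in both states. Its percentages were inferred from raw counts of mapped RPF reads. Shares here rest on normalized means and on a sum in which ids of a gene can count the same reads, so the measures are not alike. Of the 50, 49 were at least 2-fold higher in developing, beside 19.6% of all ids, and none was lower. The median log2 change was 3.56 for the large subunit and 3.55 for the small subunit. None of the 50 was among the 100 highest ids of diapause, where the best placed was rpl-3 at rank 275, and 41 were among the 100 highest of developing, where rpl-3 was at rank 4.

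In the large subunit, rpl-3 averaged 43139 normalized RPF in developing and 3608 in diapause, a log2 change of 3.58, and its share was 0.456% in developing against 0.0518% in diapause. Next by share came rpl-4, at 35255 in developing and 2809 in diapause. rpl-2 averaged 34327 in developing and 2217 in diapause, a log2 change of 3.95 that was the highest of the named large-subunit ids. The next large-subunit gains of share were those of rpl-7 (log2 change 3.73), rpl-10 (3.58) and rpl-6 (3.84). In the small subunit, rps-7 averaged 29408 in developing and 2173 in diapause, and rps-3 averaged 29634 in developing and 2648 in diapause. rps-4 and rps-9 rose by 3.82 and 3.76 on the log2 scale. rps-12 had the largest log2 change of the subunit, 4.02, at 10596 normalized RPF in developing and 654 in diapause, and rps-23 followed at 3.85.

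Most of the 50 ribosomal protein ids moved nearly alike, as far as their lists allowed otherwise. For 48 of the 50 ids the log2 change lay between 3.18 and 4.02, with a standard deviation over ids of 0.22, a range set by grouping ids above a log2 change of 3. These 48 come from the study's list of ids with a high weight on the first principal component of RPF, which favours high and strongly changed ids. Their likeness is thus in part a result of that choice. The remaining ids, both from the list with lower mRNA and higher RPF, stood apart at low shares. rpl-24.2, a relative of the ribosomal protein RPL-24, averaged 1415 in developing and 334 in diapause, a log2 change of 2.08. The id listed for both rpl-16 and M01F1.3 (CE01031) averaged 555 in developing and 328 in diapause, a log2 change of 0.76. As this id is paired with genes of different function, and M01F1.3 is lias-1 in the RefSeq table used here, its value cannot be ascribed to a ribosomal protein. Y37E3.8, which is rpl-27A in RefSeq, was not counted among the 50 and had values in their range, with a log2 change of 3.83, a share of 0.233% in developing and 0.0223% in diapause, and rank 52 in developing.

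**Figure D3:**
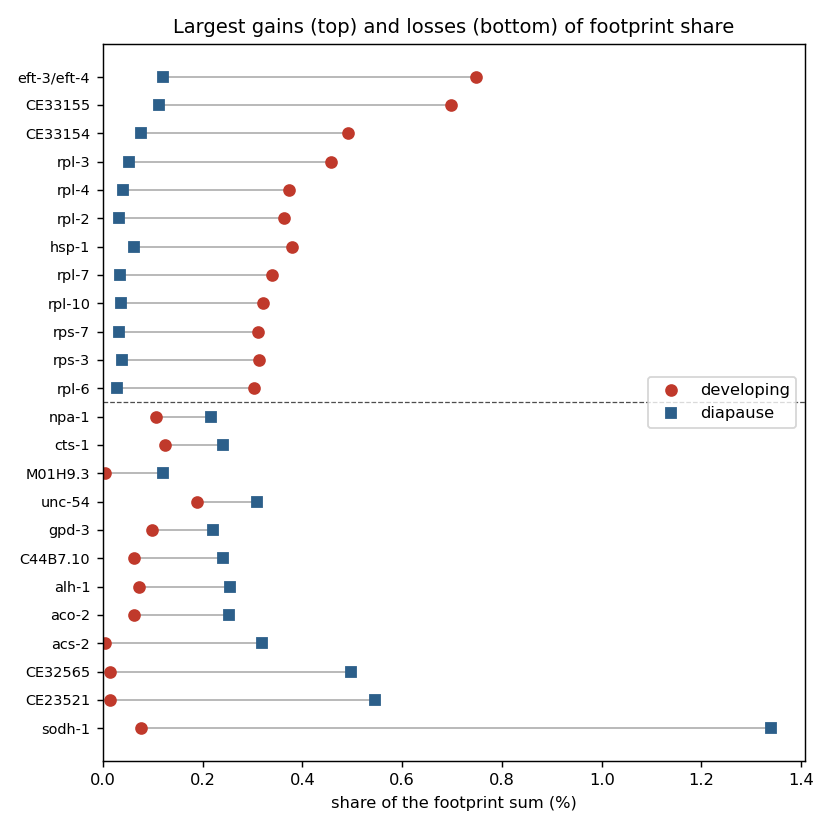
Share of the footprint sum (percent) in developing (red circles) and diapause (blue squares) for the 10 named and 2 unnamed ids with the largest gain (above the dashed line) and the largest loss (below it). The gains are mostly of ribosomal proteins and elongation factor, and sodh-1 at the bottom has the largest change in either direction.

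The translation factors rose with the ribosome. The id shared by eft-3 and eft-4, the genes of elongation factor 1 alpha, which brings aminoacyl-tRNA to the ribosome, held the largest share of any id in developing, 0.747%, against 0.1203% in diapause, where it was at rank 59. Its means were 70618 in developing and 8372 in diapause, a log2 change of 3.08. The ids with the next largest gains, CE33155 and CE33154, have no name here and are not counted in this group. Their means were 65942 and 46460 in developing against 7774 and 5269 in diapause, with log2 changes of 3.08 and 3.14. F17C11.9 (eef-1G in RefSeq), elongation factor 1 gamma, rose most of the group, by 4.09, with 15120 in developing and 887 in diapause. rack-1, which encodes a scaffold bound to the small ribosomal subunit, averaged 24027 in developing and 2282 in diapause (3.40). iff-2, for the initiation factor 5A homolog that helps elongation, averaged 18198 in developing and 2902 in diapause (2.65). Y65B4BR.5 (icd-2), a subunit of the nascent polypeptide-associated complex, averaged 11254 in developing and 1409 in diapause (3.00). All 5 ids of the group were thus at least 2-fold higher, and their summed share was 1.47% in developing and 0.228% in diapause. In the study's longer list for translation initiation factor activity, 32 of 38 ids were at least 2-fold higher, with a median log2 change of 2.11, and they summed to 0.930% in developing and 0.284% in diapause.

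Genes that build ribosomes were higher too, from lower levels, and only fib-1 and K07C5.4 of the group exceeded the ribosomal proteins in log2 change. fib-1, for the nucleolar methyltransferase fibrillarin, averaged 13794 in developing and 383 in diapause, a log2 change of 5.17. It was at rank 104 in developing and 3636 in diapause. K07C5.4 (nol-56), which belongs to the same box C/D particle, averaged 9425 in developing and 380 in diapause (4.63). lpd-7, the homolog of the assembly factor pescadillo, averaged 2829 in developing and 476 in diapause (2.57). The 3 ids of ngp-1, a nucleolar GTPase gene, rose by 2.12 to 2.14, and their values lay close together, at 2143 to 2613 in developing and 485 to 603 in diapause. All 6 ids of the group were at least 2-fold higher, and they held 0.352% in developing and 0.0416% in diapause. The 33 ids of the study's nucleolus list, chosen as higher in these data, were each at least 2-fold higher, with a median of 2.82 and a range of 1.35 to 5.17, and held 0.805% in developing and 0.129% in diapause. Of its list for RNA polymerase activity, 22 of the 23 ids past the limit were higher (median 1.88), and of its nuclear pore list 14 of 20 (median 1.47).

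rpa-0 averaged 27898 in developing and 1888 in diapause, a log2 change of 3.89 that lay in the range of the ribosomal proteins. The study's list describes it as a homolog of replication protein A. RefSeq gave no match for the name, but neither did it for several counted ribosomal protein ids, such as rpl-2 and rps-1. The missing match thus says nothing about what it encodes. It was not counted among the ribosomal proteins, and the list's description was not checked, so the group may lack it wrongly. K02F2.2 (ahcy-1), for adenosylhomocysteinase, which clears the by-product of methylation reactions, averaged 23092 in developing and 1176 in diapause, a log2 change of 4.29. daf-3, named in the study's stress and dauer list and known as a SMAD protein of the dauer pathway, had the largest of all named ids, 6.15, with 269 in developing and 3.78 in diapause. The counting standard error of that change was at most 0.51, since the diapause mean rests on few reads. The same id (CE34156) also stands among iron-sulphur proteins in the study's enrichment lists, so its name is uncertain.

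Most named chaperones and folding enzymes followed the translation genes. The 8 ids of this group held 1.32% in developing and 0.299% in diapause. Of these, 7 were at least 2-fold higher, beside 19.6% of all ids, and none was lower. Their median log2 change was 2.26. hsp-1, the constitutive cytosolic Hsp70, averaged 35736 in developing and 4395 in diapause, a log2 change of 3.02, and was at rank 7 in developing and 195 in diapause. daf-21, the cytosolic Hsp90, averaged 24984 in developing and 2597 in diapause (3.27). For this id, CE05441, the study's lists disagree on the name, as daf-2 in its stress list. hsp-60, the mitochondrial chaperonin, rose by 3.81, with 11280 in developing and 804 in diapause, and hsp-6, the mitochondrial Hsp70, by 2.34, with 7782 in developing and 1542 in diapause. Within the endoplasmic reticulum, the Hsp70 gene hsp-3 averaged 13984 in developing and 3089 in diapause (2.18), and pdi-2, a disulfide isomerase, 13373 in developing and 3055 in diapause (2.13). crt-1, for calreticulin, averaged 16893 in developing and 5119 in diapause (1.72). Of the 8, the exception was hsp-4, the other ER Hsp70 gene, which is induced by misfolded protein. It averaged 390 in developing and 232 in diapause, a log2 change of 0.75. Outside the group, the id shared by F44E5.4 and F44E5.5, also Hsp70 genes, went the other way. It averaged 529 in developing and 874 in diapause (-0.72), with a log2 share ratio of -1.16.

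The small heat shock proteins, which hold unfolding proteins in solution, did not move as a group. hsp-17 averaged 973 in developing and 159 in diapause, a log2 change of 2.61, and sip-1 averaged 142 in developing and 44.4 in diapause, a log2 change of 1.68 (counting error at most 0.17). hsp-12.6 and hsp-12.3 lay at the other end: hsp-12.6 averaged 3.99 in developing and 231 in diapause, a log2 change of -5.86 (counting error at most 0.56). hsp-12.3 averaged 10.2 in developing and 132 in diapause, a log2 change of -3.69 (at most 0.36). hsp-43 was lower by more than 2-fold, at 372 in developing and 816 in diapause. The id shared by hsp-16.48 and hsp-16.49 differed less, at 365 in developing and 456 in diapause (-0.32). Of the 6 ids, 2 were thus at least 2-fold higher and 3 lower, beside 19.6% and 15.1% of all ids.

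The largest single change of share was that of sodh-1, a gene of the sorbitol and alcohol dehydrogenase family. It was the highest id of diapause, with 1.34% of all footprints, and it held 0.0766% in developing, where it was at rank 212. Its means were 7236 in developing and 93255 in diapause, a log2 change of -3.69. acs-2, for a fatty acyl-CoA synthetase that feeds mitochondrial fat oxidation, had the largest fall in log2 of the named ids. It averaged 317 in developing and 22145 in diapause, where it was at rank 9, a log2 change of -6.13. The unnamed ids CE23521 and CE32565 had the next largest losses of share, with 1408 and 1298 in developing against 37902 and 34564 in diapause and log2 changes of -4.75 and -4.74. They were at ranks 3 and 4 in diapause.

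The other ids of the carbon metabolism group lost share with smaller folds. The 7 ids, sodh-1 included, held 0.531% in developing and 2.56% in diapause. Of these, 4 were at least 2-fold lower, beside 15.1% of all ids, and none was higher. All 7 come from the study's list for its second principal component. aco-2, the mitochondrial aconitase of the citric acid cycle, averaged 5913 in developing and 17625 in diapause, a log2 change of -1.58. alh-1, an aldehyde dehydrogenase, averaged 6820 in developing and 17745 in diapause (-1.38). F46E10.10 (mdh-1), a malate dehydrogenase, averaged 3230 in developing and 7377 in diapause (-1.19). The remaining 3 were within 2-fold in normalized RPF: gpd-3, glyceraldehyde-3-phosphate dehydrogenase, had a log2 change of -0.74, the aldolase gene F01F1.12 (aldo-2) of -0.74 and the citrate synthase gene cts-1 of -0.50. Counted on shares, gpd-3 and F01F1.12 were more than 2-fold lower, with log2 share ratios of -1.18 each. Named enzymes of carbon metabolism outside the group did not all fall. The ids of T05H10.6 (pdha-1) had log2 changes of 0.87 and 0.86 and LLC1.3 (dld-1) of 0.67, and each gained share. alh-8 had 0.40 and lost a little share, at 0.0648% in developing and 0.0668% in diapause. Of the other named ids with large losses, C44B7.10 (acer-1 in RefSeq) averaged 5916 in developing and 16786 in diapause (-1.50), and npa-1, for a fatty acid binding polyprotein, 10001 in developing and 15058 in diapause (-0.59). M01H9.3 (-4.36), M60.4 (-3.77) and K07E3.4 (-2.76) were among the 10 largest falls of the 270 named ids.

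**Figure D4:**
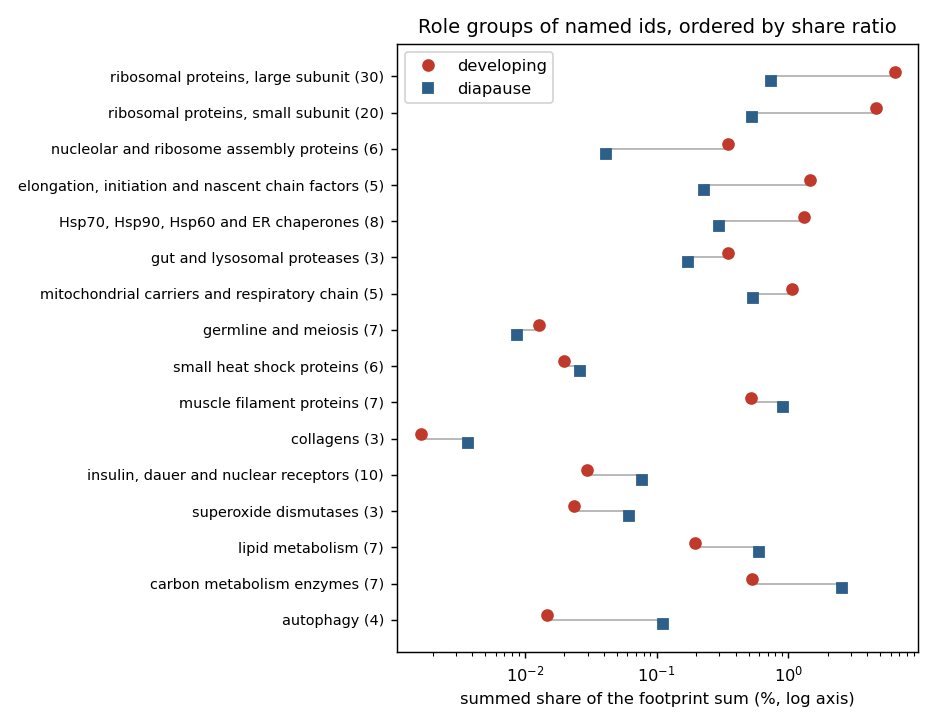
Summed share of the footprint sum (percent, log axis) in developing (red circles) and diapause (blue squares) for role groups of named ids, with the number of ids past the baseMean limit in parentheses, ordered by the ratio of shares. Ribosomal proteins at the top hold 6.45% and 4.65% in developing against 0.738% and 0.535% in diapause, and autophagy genes at the bottom 0.0147% in developing against 0.112% in diapause.

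Of 7 lipid metabolism ids, 2 were at least 2-fold higher and 2 lower (28.6% each, beside 19.6% and 15.1% of all ids). The desaturase genes fat-2 and fat-4, which make polyunsaturated fatty acids, were higher: fat-2 averaged 4984 in developing and 690 in diapause, a log2 change of 2.85, and fat-4 averaged 3447 in developing and 1316 in diapause, a log2 change of 1.39. hacd-1, a hydroxyacyl-CoA dehydrogenase of fat oxidation, averaged 1631 in developing and 7610 in diapause (-2.22), beside the fall of acs-2. pod-2, for acetyl-CoA carboxylase, the entry enzyme of fatty acid synthesis, did not follow the desaturases, with 7545 in developing and 8952 in diapause (-0.25). far-3, a fatty acid binding protein gene, had a log2 change of -0.51, and dhs-4, a short-chain dehydrogenase gene, of -0.30 (counting error at most 0.11). acdh-2 did not pass the limit of 50.

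All 4 autophagy ids were at least 2-fold lower, beside 15.1% of all ids, with a median log2 change of -2.08. lgg-1, the Atg8 homolog that coats autophagosomes, averaged 588 in developing and 5038 in diapause, a log2 change of -3.10. atg-18, a phosphoinositide-binding protein gene of the pathway, averaged 196 in developing and 1283 in diapause (-2.71). unc-51, the kinase that starts autophagy, averaged 466 in developing and 1078 in diapause (-1.21), and atg-3, the conjugating enzyme for LGG-1, 140 in developing and 382 in diapause (-1.45, counting error at most 0.11). Superoxide dismutases, which remove superoxide, were lower as well, though unequally. sod-3, a mitochondrial form, averaged 10.7 in developing and 309 in diapause, a log2 change of -4.85 (counting error at most 0.34), and sod-4, an extracellular form, 141 in developing and 909 in diapause (-2.69). sod-1, the main cytosolic form, was within 2-fold, at 2084 in developing and 3114 in diapause (-0.58).

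Of 10 genes of insulin signalling, dauer formation and nuclear receptors, 5 were at least 2-fold lower, beside 15.1% of all ids. The id listed as daf-3 was the 1 that was higher, beside 19.6% of all ids. akt-1, a kinase downstream of the insulin receptor, averaged 195 in developing and 1285 in diapause, a log2 change of -2.72. daf-16, the FOXO factor that this pathway keeps out of the nucleus, averaged 488 in developing and 1061 in diapause (-1.12). mfb-1, an F-box protein gene, averaged 74.1 in developing and 411 in diapause (-2.47, counting error at most 0.14). The receptor-like genes T19F4.1 and lite-1 had low means and log2 changes of -1.84 and -1.35, with counting errors of at most 0.22 and 0.20. nhr-49, the nuclear receptor that drives fat oxidation genes, had a log2 change of -0.83, kin-29 of -0.89 (counting error at most 0.11), daf-15, the Raptor homolog of the TOR complex, of -0.68 and odr-4 of 0.74. In shares the first 3 of these 4 were more than 2-fold lower.

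Muscle filament genes lost share without a common fold. The 7 ids held 0.526% in developing and 0.917% in diapause. unc-54, the major myosin heavy chain of the body wall, averaged 17806 in developing and 21561 in diapause, a log2 change of -0.28, but its share was 0.188% in developing and 0.310% in diapause. myo-3, the other body wall myosin heavy chain, differed more, at 1471 in developing and 5928 in diapause (-2.01). unc-87 and pat-10, for a calponin-like protein and troponin C, had log2 changes of -1.12 and -1.03. mlc-3, a myosin light chain gene, had -0.16. act-2, an actin gene, and let-75, a pharyngeal myosin heavy chain gene, were slightly higher in normalized RPF, by 0.09 and 0.15 on the log2 scale, and lost share: act-2 held 0.142% in developing and 0.181% in diapause, let-75 0.0480% in developing and 0.0588% in diapause.

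Of the 3 proteases of the gut and lysosome, 2 were at least 2-fold higher, beside 19.6% of all ids. asp-1, an intestinal aspartic protease gene, averaged 17433 in developing and 3795 in diapause, a log2 change of 2.20. cpz-2, a cathepsin gene, averaged 4738 in developing and 1601 in diapause (1.57), and asp-6 averaged 10585 in developing and 6696 in diapause (0.66). The group of mitochondrial carriers and respiratory chain is mostly ant-1.1, the ADP/ATP translocase gene. Its 3 ids had means of 16881 to 42709 in developing and 5423 to 14148 in diapause, with log2 changes of 1.59 to 1.64. isp-1, the Rieske iron-sulphur protein of complex III, averaged 4883 in developing and 3010 in diapause (0.70). R05G6.7 (vdac-1), the outer membrane channel, averaged 7707 in developing and 5723 in diapause, a log2 change of 0.43, but its share was 0.0815% in developing and 0.0822% in diapause. ant-1.44 and ucr-2.3 of the same group did not pass the limit of 50. In the study's ATP synthase list, 7 of 22 ids (31.8%, beside 19.6% of all ids) were at least 2-fold higher, with 2.06% of the footprints in developing and 1.43% in diapause.

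The study's further lists held fewer footprints. In its proteasome list, 9 of 31 ids (29.0%, beside 19.6% of all ids) were at least 2-fold higher, with a median log2 change of 0.83. In its CUB-like list, a family with a domain found in many secreted worm proteins, 21 of 41 ids passed the limit, and 20 of these were higher, with a median log2 change of 3.85 and a summed share of 0.0841% in developing against 0.0111% in diapause. Of the lists lower in developing, 23 of the 29 transthyretin-like ids past the limit were at least 2-fold lower (median -1.64), and they held 0.102% in developing and 0.472% in diapause. Cytochrome P450 genes, which oxidize foreign and endogenous compounds, had 18 of 20 ids lower (median -2.32), at 0.0147% in developing and 0.104% in diapause. In the Wnt signalling list 5 of 34 ids past the limit were at least 2-fold lower (14.7%, close to the 15.1% of all ids, median -0.55).

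Collagen and germline genes had low means. Of the 9 collagen ids, 3 passed the limit of 50. col-85 averaged 35.7 in developing and 77.2 in diapause, a log2 change of -1.11 (counting error at most 0.22), col-109 had -0.77 (at most 0.18) and col-108 -0.52 (at most 0.18). Of the 12 germline and meiosis ids, 7 passed it. hil-4, a linker histone gene, averaged 151 in developing and 16.9 in diapause, a log2 change of 3.16 (at most 0.25), and glh-4, a germline helicase gene, 176 in developing and 60.3 in diapause (1.54, at most 0.15). csr-1 and knl-2 were within 2-fold, the ids of csr-1 at 0.63 and 0.74 (at most 0.10 and 0.11) and knl-2 at 0.86 (at most 0.14). The named ids nearest the limit were C16A11.4, with mean values over both states of 53.4 and 55.8 for its ids and log2 changes of 0.94 and 1.00 (counting error at most 0.21 each), just inside it. Just outside were C25E10.10, with a mean of 48.0 and a log2 change of 0.34 (at most 0.21), and K11D12.9, with a mean of 45.1 and a log2 change of 0.92 (at most 0.23).

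Ids of a gene mostly moved together, as they count many of the same reads. Beside ant-1.1 and ngp-1, the 4 ids of mig-15, a kinase gene, had log2 changes of -0.39 to -0.36, the 4 of uaf-1, a splicing factor gene, 0.57 to 0.62, and the 4 of hlh-11, a transcription factor gene, 0.62 to 0.67. The spread was wider for T07A9.9 (nog-1), a nucleolar GTPase gene, at 1.76 to 2.03, and for C06E7.1 (sams-3), an S-adenosylmethionine synthetase gene, at -1.46 to -0.83. The outermost ids of both genes have low means, with counting errors of at most 0.13 for the id of T07A9.9 at 2.03 and at most 0.19 for that of C06E7.1 at -0.83. Over all ids past the limit, 106 had exactly the same pair of means as another id.

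Poly(A) RNA libraries of the same states show how much of this was in the mRNA. Over the 12115 ids that passed the limit in both assays and have a finite change, the log2 changes in RPF and mRNA correlated with r = 0.89 across ids, which are not independent of each other and share reads within a gene. Of the ids at least 2-fold higher in RPF, 1504 were also at least 2-fold higher in mRNA and 874 were not (beside 13.6% of all ids past the limit in mRNA), and of those at least 2-fold lower in RPF, 1014 were lower in mRNA and 806 were not (beside 9.65%). The part of the signal that changed place was 42.0 percentage points in RPF and 25.9 in mRNA, and 50% of the mRNA signal was held by 498 ids in developing and 631 in diapause. Both tables used here hold means over libraries, and the difference between assays was not tested.

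The role groups differed in how far their footprint shares departed from their mRNA shares. The 50 ribosomal protein ids, a part of the class, held 12.1% of the mRNA signal in developing and 6.71% in diapause. They held 11.1% of the footprints in developing and 1.27% in diapause. Their footprint and mRNA shares were thus close after feeding and apart before it. For all 50 ids the log2 share ratio was higher in RPF than in mRNA, and for the 48 ids above it was higher by 1.57 to 2.85. Their mRNA log2 changes ran from 0.44 for rpl-3 to 1.43. For the chaperones, the mRNA held 0.752% in developing and 0.370% in diapause, a smaller change than in RPF. Carbon metabolism enzymes, at 0.340% of the mRNA signal in developing and 1.31% in diapause, had a higher log2 share ratio in RPF than in mRNA for 2 of 7 ids and a lower one for the rest. For sodh-1 the log2 change was -3.12 in mRNA and -3.69 in RPF, and for acs-2 it was -5.08 in mRNA and -6.13 in RPF.

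Some groups held ids that moved in opposite directions in the assays, and most of these ids were listed by the study for that reason. ant-1.1 had log2 changes of -1.56 to -1.55 in mRNA and 1.59 to 1.64 in RPF. fat-2 was at -1.39 in mRNA and 2.85 in RPF, and fat-4 at -1.47 in mRNA and 1.39 in RPF. hil-4 was at -0.61 in mRNA and 3.16 in RPF. ngp-1, with -0.51 to -0.48 in mRNA and 2.12 to 2.14 in RPF, and lpd-7, with -0.55 in mRNA and 2.57 in RPF, parted in this from fib-1, at 3.54 in mRNA and 5.17 in RPF. T07A9.9 was at -1.66 to -1.34 in mRNA and C06E7.1 at 0.71 to 1.06 in mRNA, each against its direction in RPF. In the study's list of ids with lower mRNA and higher RPF, 101 of 130 passed the limit of 50. Of these, 51 were at least 2-fold higher in RPF (50.5%, beside 19.6% of all ids). In the list with the opposite pattern, 43 of 52 passed it, and 6 were at least 2-fold lower (14.0%, close to the 15.1% of all ids).

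**Figure D5:**
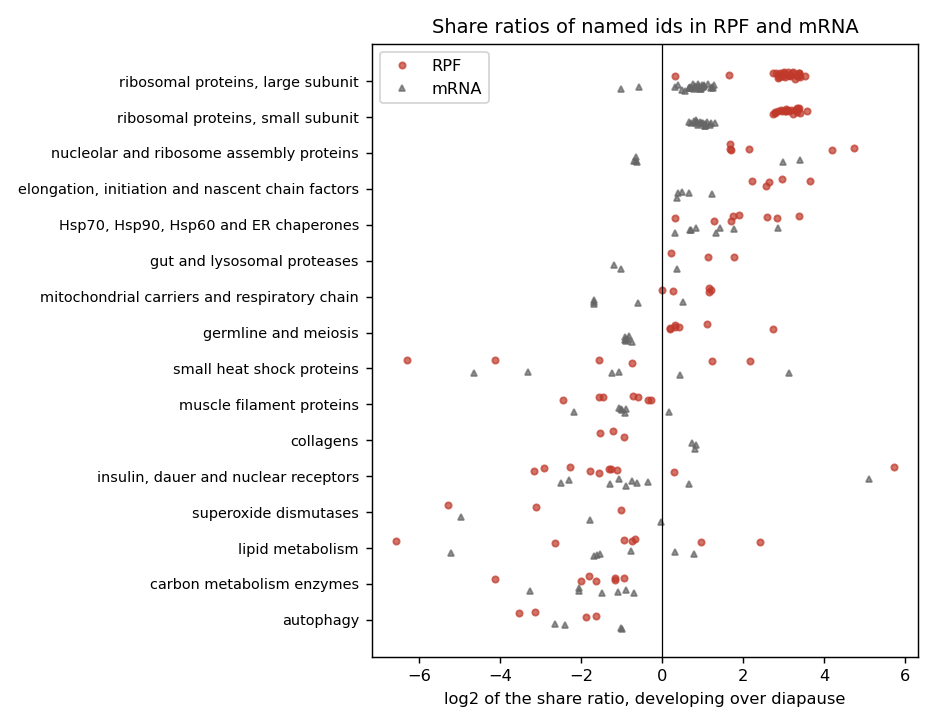
Log2 of the share ratio, developing over diapause, for the named ids of each role group past the baseMean limit, in RPF (red circles) and mRNA (grey triangles), each point 1 id, with a small vertical scatter added to separate points. Ribosomal proteins have higher ratios in RPF than in mRNA for all 50 ids. In the carrier group, the ids of ant-1.1 lie right of 0 in RPF and left of it in mRNA. R05G6.7 of that group does not, at -0.01 in RPF and 0.51 in mRNA.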

How the data were processed

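The 6 C. elegans RPF libraries and, for comparison, the 6 mRNA-seq libraries of the same states were used. The authors aligned reads with Bowtie 0.12.7 to genome release WS230, kept reads with a single genomic alignment and summed them per coding sequence with 18 nt flanks. The signal columns the authors deposited are DESeq means of size-factor-normalized read counts over the 3 libraries of a state. The tables name the states only as A and B, read here as diapause and developing. The authors' own fold changes, p-values, adjusted p-values and variance ratios in 6 further columns were not used, nor were 6 tables of other species. No column was left unmapped.

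Changes, shares and sums were computed in Python 3.11.15 with numpy 2.4.6 and pandas 2.3.3, with no pseudocount, for ids with a baseMean of at least 50. As only means were available, no test, standard deviation or leave-one-out was possible. What 1 read adds was taken as the 3 smallest values that are no whole-number sum of smaller ones, and the counting error limit follows from the largest of these. Both were run on simulated counts that held sampling error only, the model on which the limit rests. That run checks the arithmetic and says nothing about the spread between libraries. Intervals cover counting error only.

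Ids were named through the study's published lists. Named here are the 10 ids each with the largest gain, loss, rise and fall, up to 4 examples by share for each role group or all of a group of 8 or fewer, all ids of genes with 3 or more, the ids nearest the limit and the 4 unnamed ids with the largest gains and losses. The members and lists were chosen with earlier results of these data known. rpl-24.2, CE01031 and the additional ribosomal and low-level examples were singled out after their values were seen. Alternatives tried were scaling to shares or to the median change, filters of 10, 200 and none, a pseudocount of 10, calls at 4-fold, other share denominators, and, added after seeing the data, counting identical ids once.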

Additional observations from a re-analysis of the deposited data

How the results depend on the processing

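Scaling to the footprint sum, which lowers every log2 change by 0.44, turned the balance of calls: 1565 ids were at least 2-fold higher in developing and 3257 lower, against 2388 and 1834 on the authors' size factors. With a minimum baseMean of 200, 1638 ids were higher and 1050 lower. With no filter, 3660 were higher and 3572 lower. At 4-fold, 889 were higher and 564 lower. The counts stayed within 1.5 times under median centring, a minimum of 10, a pseudocount of 10 and with identical ids counted once. The points of share moved (41.2 to 42.1), the shares of the ribosomal protein ids (11.1% to 11.3% in developing, 1.27% to 1.31% in diapause) and the numbers of ids that hold 50% or 90% of the signal also stayed within 1.5 times under every denominator tried for them. Of the 142 named or singled-out ids followed through every setting, none past 2-fold changed its direction. On shares, 15 of the 270 named ids were no longer at least 2-fold higher, among them fat-4 (log2 0.95), and 17 were newly at least 2-fold lower. Group medians newly past 2-fold on shares were those of the collagens (-1.21) and small heat shock proteins (-1.17). At a minimum of 10, 1 group median was newly past it, and with no filter 2 were. The insulin and dauer group fell inside it at a minimum of 200 (-0.89) and with a pseudocount of 10 (-0.97). With a pseudocount of 10, col-85 (-0.93) was no longer past it. No paired analysis was possible because the tables hold means over the 3 libraries of a state, although fed and starved larvae of a replicate came from the same batch, and for the same reason no library could be left out. Low means limit daf-3, hsp-12.6, hsp-12.3 and sod-3, whose folds rest on few reads.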
